A study of Homo sapiens with 12 samples.

Results

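SNAI1, SNAI2, SNAI3, ZEB1, ZEB2, TWIST1 and TWIST2 are the DNA-binding factors best known for switching epithelial cells towards a mesenchymal state. These 7 genes were taken by name from the 58830 entries of a deposited table of normalized read counts from RNA-seq. The cells were A549, a human lung adenocarcinoma epithelial line. The 4 groups were edited cells with TGFβ, wild-type cells with TGFβ, edited cells without treatment, and wild-type cells without treatment, with 3 libraries each. Edited cells are the derivative labelled Sm22mut, a knockout of the miR-22 target site of SNAI1, and wild-type cells are labelled WT. TGFβ was given at 10 ng/mL in complete medium, and all groups were collected on day 5. The edited cells are 1 derivative line, and whether it is 1 clone was not given in the sources used here, so the edit and the line's derivation cannot be told apart in any comparison of the lines.

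SNAI factors are zinc-finger repressors that bind E-box sequences in the promoters of junction genes such as CDH1. ZEB factors bind the same elements through zinc-finger clusters at both ends of the protein, and TWIST factors are basic helix-loop-helix proteins that bind E-boxes as dimers with E proteins. TGFβ signals through SMAD proteins and is a classical inducer of this switch in A549 cells. MicroRNAs of the miR-200 family hold ZEB mRNAs down in epithelial cells, and the series' title names miR-22 as the regulator of SNAI1.

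Recovered read totals were between 84210775 and 111141708 per library. Within groups, replicate libraries differed by more than counting noise, with a chi-square per gene of 10.7 to 39.4, and no libraries were identical. WT TGFβ replicates 1 and 3 stood further apart, at 113.6, and mitochondrial transcripts were 3.79% of reads in WT TGFβ replicate 1 and 2.20% to 3.22% in the other 11 libraries. The epithelial markers EPCAM, CDH1, KRT7, KRT8, KRT18 and KRT19 summed to at least 486508 normalized counts in every library. With TGFβ 5 of these 6 were called lower and 1 higher in each line. Of all genes, 30.7% were called lower and 32.1% higher in the edited line, and 30.9% and 30.8% in WT. SFTPA1 and SFTPC, surfactant genes that define alveolar type 2 cells, were below 10 in all 12 libraries. The sum of 6 fibroblast markers was 107611 to 111435 in edited TGFβ libraries and 153421 to 161611 in WT TGFβ libraries, against 498 to 657 in untreated edited and 692 to 845 in untreated WT libraries, and COL1A1 made up most of it. All 5 tested fibroblast markers were called higher with TGFβ in both lines. PDGFRA averaged 408 ± 18.7 in edited TGFβ and 403 ± 62.1 in WT TGFβ cells, against 9.96 ± 6.24 in untreated edited and 16.0 ± 5.14 in untreated WT cells. LUM averaged 1289.6 ± 173 and 788 ± 79.3 in edited and WT cells with TGFβ, against 170.1 ± 38.4 and 110.4 ± 19.5 in untreated edited and WT cells. DCN, a defining fibroblast marker, was below 10 in all but the edited TGFβ group. The sum of 6 alveolar type 2 markers was 1840.2 to 2105 in edited TGFβ, 1511 to 1685 in WT TGFβ, 855 to 907 in untreated edited and 625 to 676 in untreated WT libraries. Sums of 6 endothelial markers were 32.6 to 80.7 in treated and 115 to 185 in untreated libraries, and sums of 6 leukocyte markers 48.5 to 80.2 and 77.8 to 139, with CD3E and CD68 below 10 throughout. The part of these marker differences in the results was not tested.

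The edit addressed the pairing of miR-22 with SNAI1, so the microRNA and the matches in the SNAI1 transcript are shown first. Capitals mark the seed (bases 2 to 8) in the RefSeq mature sequence of build GRCh38.p14, at chr17:1713914-1713935 on the minus strand, and the complement of the seed in the mRNA.
hsa-miR-22-3p: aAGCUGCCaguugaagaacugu
SNAI1 match 1: ttctgtggagggagGGCAGCTg
SNAI1 match 2: atgccccgagcccaGGCAGCTa
SNAI1 (ENSG00000124216.3) lies at chr20:49982999-49988886 on the plus strand in the GENCODE annotation of GRCh38. Both matches lie in its 3′ untranslated region of 830 bases. The capitals of match 1 begin at base 228 of that region (window chr20:49988270-49988291) and those of match 2 at base 522 (window chr20:49988564-49988585). Which match was edited was not given in the sources used here. The letters GGCAGCT occur in the 3′ untranslated region of 13.9% of 19142 protein-coding genes. ZEB2 holds them once, and SNAI2, SNAI3, ZEB1, TWIST1 and TWIST2 do not hold them. Mature microRNAs were not analysed here.

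SNAI1, the repressor whose transcript carries the edit, was the member that passed the test between the lines under TGFβ. It had 1406, 1214 and 1318 normalized counts in edited TGFβ libraries, 958, 897 and 768 in WT TGFβ libraries, 513, 499 and 432 in untreated edited libraries, and 510.4, 400.4 and 576 in untreated WT libraries. The edited and WT libraries did not overlap with TGFβ and interleaved without it, and in both lines every treated library lay above every untreated one. Group means were 1313 ± 96.5 in edited TGFβ cells, 875 ± 97.2 in WT TGFβ cells, 481 ± 43.4 in untreated edited cells and 496 ± 88.6 in untreated WT cells (SD, n = 3 each).

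With TGFβ, SNAI1 was 1.504-fold higher in edited than in WT cells, a log2 fold change of 0.59 ± 0.13 (SE; adjusted p = 0.00685, limma with Benjamini-Hochberg adjustment over the 20456 genes tested). Without TGFβ the edited-over-WT log2 fold change was -0.03 with a 95% interval of -0.30 to 0.24 (adjusted p = 0.884, limma). The interval excludes an untreated difference as large as the one measured with TGFβ. The sign of this small untreated value turned when edited untreated replicate 3 (0.05) or WT untreated replicate 3 (0.09) was left out.

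TGFβ raised SNAI1 by a log2 fold change of 1.45 ± 0.13 in the edited line (a 2.73-fold change, adjusted p = 4.9e-08, limma) and of 0.83 ± 0.13 in WT (1.78-fold, adjusted p = 3.19e-05). The responses differed by 0.62 ± 0.18 on the log2 scale (adjusted p = 0.0279, limma interaction term). That difference was positive in each of the 24 alternative analyses, at 0.50 to 0.76, but its adjusted p rose above 0.05 when any of 6 single libraries was left out. These were edited TGFβ replicates 1 and 3, WT TGFβ replicate 2, edited untreated replicate 3 and WT untreated replicates 1 and 3, with an adjusted p of 0.0506 to 0.0793.

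Of the 20456 genes tested, 16.6% differed between the lines in their response to TGFβ, 10.6% with a positive edited-minus-WT difference. SNAI1 was the only member among them (1 of 7). Under TGFβ, 11.7% of genes differed between the lines, with 1510 higher (7.38%) and 884 lower in edited cells, and again SNAI1 alone of the 7 members passed. SNAI2 (0.81) and ZEB2 (1.26) had larger edited-over-WT log2 fold changes with TGFβ that missed the threshold. Over the alternative analyses 1 to 4 members passed. The split of higher and lower calls over all genes depended on scaling, at 1254 higher and 1355 lower with equal library totals and 1367 higher and 1345 lower with quantile normalization. For the difference between responses it was 2163 higher and 1232 lower as deposited and 1731 higher and 1627 lower with equal totals and 1759 higher and 1533 lower with quantile normalization. SNAI1 kept its sign and passed under each scaling tried, for both comparisons.

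MIR22HG, the host transcript of miR-22, was 4675, 4965 and 4181 in edited TGFβ libraries, 5024, 5010.0 and 5184 in WT TGFβ libraries, 2543, 2994 and 2768 in untreated edited libraries, and 2338, 2836 and 2423 in untreated WT libraries. The treated libraries lay above the untreated ones in both lines. With TGFβ every edited library lay below every WT one. TGFβ raised it 1.66-fold in edited cells, by 0.73 ± 0.08 on the log2 scale (adjusted p = 1.02e-06), and 2.01-fold in WT, by 1.01 ± 0.08 (adjusted p = 2.54e-08, both by limma). The line difference did not pass with TGFβ (-0.14, adjusted p = 0.313) or without it (0.13, adjusted p = 0.262). The responses differed by -0.27 ± 0.12, which did not pass (adjusted p = 0.132, limma interaction term). Without WT untreated replicate 2 that difference passed (-0.36, adjusted p = 0.0433, limma). The host transcript does not measure the mature microRNA. SNAI1P1, the SNAI1 pseudogene, was listed at 0 in 11 of 12 libraries and had 2 reads in the other.

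**Figure D1:**
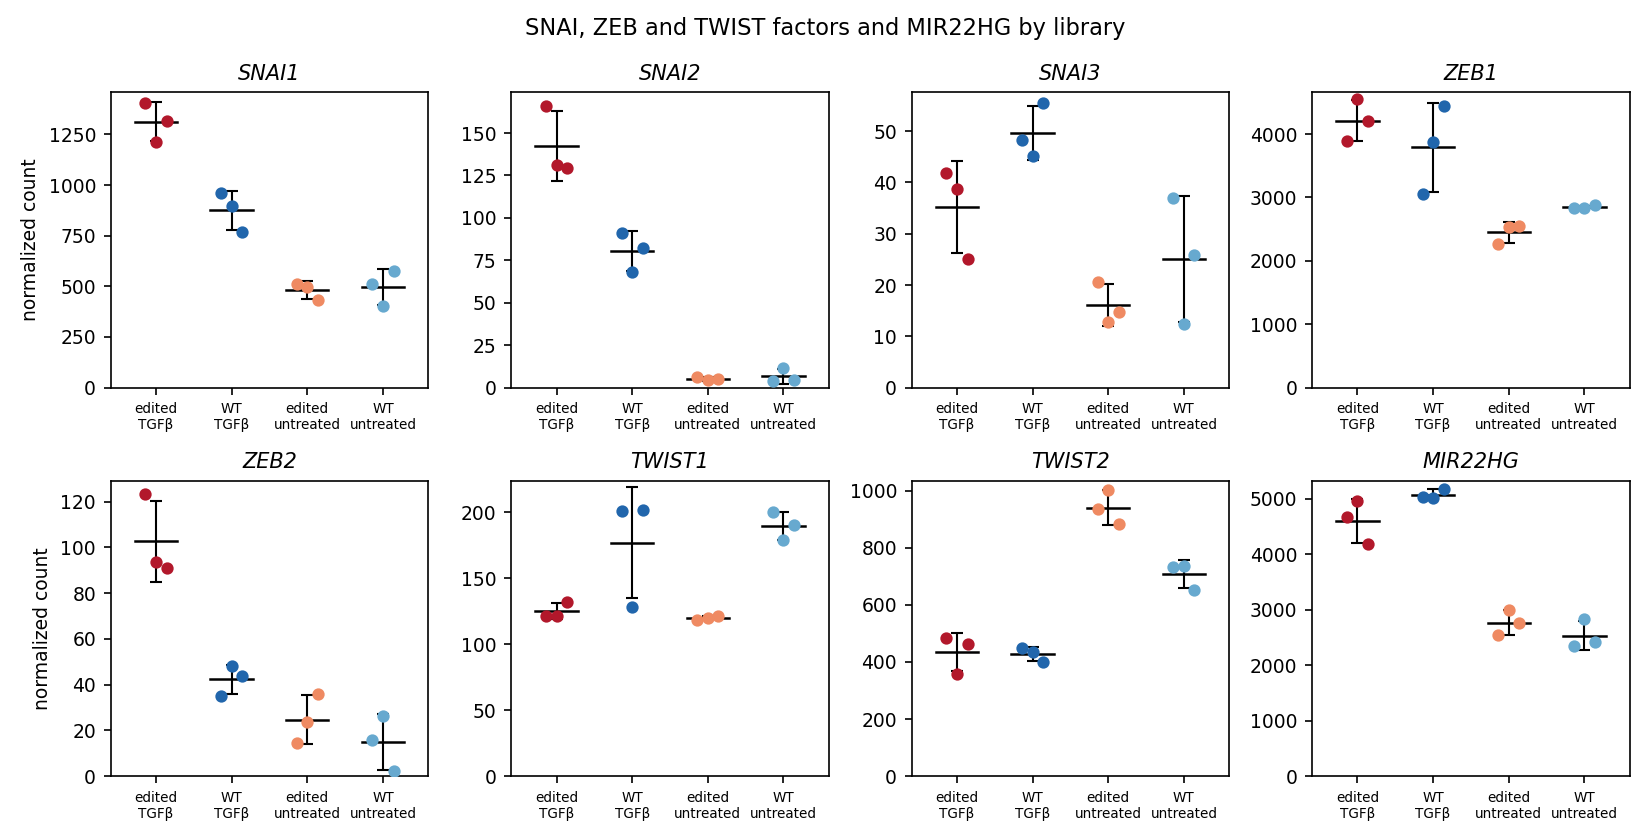
Normalized counts of the 7 factors and of MIR22HG in each library. Points are libraries, long bars group means and whiskers 1 SD (n = 3), and each panel has its own axis from 0. SNAI1 lies at 1214 to 1406 in edited TGFβ cells, above the 768 to 958 of WT TGFβ cells, while the untreated lines overlap.

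SNAI2 (also called Slug), the paralogue known from neural crest migration, showed the largest fold change with TGFβ of the 7 members in both lines. It lies on chromosome 8. Edited TGFβ libraries held 166, 131 and 129.7 normalized counts and WT TGFβ libraries 91.2, 68.1 and 82.4, against 6.19, 4.29 and 4.90 in untreated edited and 3.99, 11.5 and 4.30 in untreated WT libraries. Treated and untreated libraries were far apart, and with TGFβ every edited library lay above every WT one. In reads, the untreated libraries held only 4 to 14 each. SNAI2 met the expression filter through its treated libraries, with 1 of 6 untreated libraries at 10 or more, so it had to differ with TGFβ to be tested at all.

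The log2 fold change of SNAI2 with TGFβ was 4.55 ± 0.37 in the edited line and 3.55 ± 0.37 in WT. Because of how SNAI2 met the filter, these 2 values are given as a description, without a p-value. On this scale, log2 of the normalized count plus 1, changes of low genes are understated. The edited-over-WT difference with TGFβ was 0.81 with a 95% interval of 0.03 to 1.60 and did not pass the threshold over all genes (adjusted p = 0.175, limma). It did pass with a pseudocount of 10 (adjusted p = 0.0349) and by DESeq2 on recovered reads (adjusted p = 0.0150). Without TGFβ the difference was -0.19 (adjusted p = 0.744), and the responses differed by 1.00 ± 0.52 (adjusted p = 0.215).

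SNAI3, the least studied of the SNAI genes, was low throughout. It had 41.8, 38.8 and 25.0 normalized counts in edited TGFβ libraries, 48.4, 45.1 and 55.5 in WT TGFβ libraries, 20.6, 12.9 and 14.7 in untreated edited libraries, and 36.9, 12.4 and 25.8 in untreated WT libraries. Treated libraries lay above untreated ones in both lines, and with TGFβ every edited library lay below every WT one, the opposite side from SNAI1 and SNAI2. The log2 fold change with TGFβ was 1.08 ± 0.38 in the edited line (adjusted p = 0.0216, limma) and 1.08 ± 0.38 in WT (adjusted p = 0.0217). Both calls were lost with no filter on low values (adjusted p = 0.0558 in the edited line and 0.0562 in WT), and that in WT also with quantile normalization (0.0775). They were also lost without single libraries: edited TGFβ replicate 1 or 2 and edited untreated replicate 2 or 3 for the edited line, at up to 0.0765, and WT TGFβ replicate 3 or WT untreated replicate 2 for WT, at up to 0.126. The edited-over-WT difference was -0.51 with TGFβ (95% interval -1.32 to 0.30, adjusted p = 0.440) and -0.51 without it (adjusted p = 0.342). Exons of SNAI3 and of the antisense gene SNAI3-AS1 share 163 bases, 9.41% of the SNAI3 exon bases. Strand use in counting was not given in the sources used here, so reads of the antisense partner may be included. SNAI3-AS1 averaged 120.4 ± 5.48 in edited TGFβ cells, 177 ± 68.2 in WT TGFβ cells, 112 ± 14.8 in untreated edited cells and 119.7 ± 15.2 in untreated WT cells, and it passed in no comparison by limma over all libraries. In WT its log2 fold change with TGFβ was 0.51 (adjusted p = 0.0608). That value passed by edgeR (adjusted p = 0.0414) and DESeq2 (0.0284) on recovered reads and without WT TGFβ replicate 3 (0.0121), and without the same library it was lower in treated edited than in treated WT cells (-0.70, adjusted p = 0.0411).

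ZEB1 (chr10:31318495-31529814, plus strand), the repressor bound by the miR-200 family, rose moderately from a high level. It had 3890.0, 4548 and 4200.0 normalized counts in edited TGFβ libraries, 3050.2, 3869 and 4446 in WT TGFβ libraries, 2260.4, 2538 and 2552 in untreated edited libraries, and 2837, 2828 and 2872 in untreated WT libraries. The widest spread was within WT TGFβ cells, between replicates 1 and 3, the pair that stood apart over all genes. Treated and untreated libraries did not overlap in either line.

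The log2 fold change of ZEB1 with TGFβ was 0.78 ± 0.10 in the edited line (1.72-fold, adjusted p = 6.57e-06, limma) and 0.40 ± 0.10 in WT (1.32-fold, adjusted p = 0.00379). In WT it was 0.54 without WT TGFβ replicate 1 and 0.27 without replicate 3, with an adjusted p of 0.0178 or lower in each leave-out. The responses differed by 0.39 ± 0.15, which did not pass (adjusted p = 0.0908, limma), but it passed without WT TGFβ replicate 3 (0.51, adjusted p = 0.00701). Untreated edited libraries lay below untreated WT libraries with no overlap, by a log2 fold change of -0.22 (95% interval -0.44 to 0.0049, adjusted p = 0.129). This untreated difference passed when limma was fitted to those 2 groups alone (adjusted p = 0.0206) and without WT TGFβ replicate 1 (0.0246) or 3 (0.0467). With TGFβ the lines overlapped (0.17, adjusted p = 0.347), and without WT TGFβ replicate 3 the difference passed (0.29, adjusted p = 0.0348). ZEB1-AS1, which is transcribed from the opposite strand and shares 366 exon bases with ZEB1 (4.23% of the ZEB1 exon bases), moved the other way. It averaged 171 ± 23.9 in edited TGFβ cells and 138 ± 16.1 in WT TGFβ cells, against 359 ± 54.9 in untreated edited and 299 ± 47.8 in untreated WT cells. Its log2 fold change with TGFβ was -1.06 ± 0.17 in the edited line (adjusted p = 3.65e-05, limma) and -1.10 ± 0.17 in WT (adjusted p = 2.68e-05).

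ZEB2 (chr2:144364364-144524583, minus strand), the paralogue of ZEB1, had 123, 93.7 and 91.0 normalized counts in edited TGFβ libraries, 35.2, 47.9 and 43.7 in WT TGFβ libraries, 14.4, 23.6 and 36.0 in untreated edited libraries, and 16.0, 26.4 and 2.15 in untreated WT libraries. Edited TGFβ libraries stood above all the others, and the untreated groups overlapped. The lowest value, in WT untreated replicate 3, rests on 2 reads. TGFβ raised ZEB2 by a log2 fold change of 2.09 ± 0.58 in the edited line (adjusted p = 0.00506, limma) and of 1.92 ± 0.58 in WT (adjusted p = 0.00908). Without WT untreated replicate 3 the WT value was 1.00, and the call held in each leave-out (adjusted p at most 0.0348). With TGFβ the edited-over-WT log2 fold change was 1.26 with a 95% interval of 0.02 to 2.49, which missed the threshold (adjusted p = 0.186, limma). It passed by DESeq2 on recovered reads (adjusted p = 0.0203), with a pseudocount of 10 (0.0365), in a fit to the 2 treated groups alone (0.0191) and without WT untreated replicate 3 (0.0278). Untreated, it was 1.09 (adjusted p = 0.172) and passed without WT untreated replicate 2 (1.72, adjusted p = 0.0317), while without WT untreated replicate 3, the library with 2 reads, it was 0.16 (adjusted p = 0.798). ZEB2-AS1, which shares 1299 exon bases with ZEB2 on the opposite strand, was listed at 0 in all 12 libraries.

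The miR-200 seeds are shown because the ZEB transcripts hold their complements several times over, unlike the other members. Capitals again mark bases 2 to 8 of the RefSeq mature sequences and the complement in the mRNA.
hsa-miR-200b-3p: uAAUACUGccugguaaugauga
hsa-miR-200c-3p: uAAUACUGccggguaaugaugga
hsa-miR-429: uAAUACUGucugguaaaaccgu
hsa-miR-200a-3p: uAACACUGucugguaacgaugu
hsa-miR-141-3p: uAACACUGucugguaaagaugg
ZEB1 match 1: ttgttttatcttatCAGTATTa
ZEB1 match 4: tgatttttacctatCAGTATTa
ZEB2 match 3: tgaagcacccatgtCAGTATTa
The first 3 microRNAs share the seed AAUACUG and the other 2 share AACACUG, so the family falls into 2 seed groups. CAGTATT, the complement of the first, occurs 6 times in the ZEB1 and 5 times in the ZEB2 3′ untranslated region. It occurs once in SNAI2 and in none of the other 4 members, and 16.0% of genes hold it. CAGTGTT, the complement of the second, occurs 3 times in ZEB1 and 4 times in ZEB2 and in no other member, against 18.2% of genes. The ZEB1 windows lie at chr10:31527619-31527640 and chr10:31528493-31528514 on the plus strand and the ZEB2 window at chr2:144388631-144388652 on the minus strand. A match of letters is a description of the transcript, and binding was not analysed here.

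TWIST2 (chr2:238848032-238910543, plus strand), a helix-loop-helix factor of mesenchymal tissue, was the member that fell. It had 482, 359 and 463 normalized counts in edited TGFβ libraries and 447, 436 and 398 in WT TGFβ libraries, against 936, 1004 and 884 in untreated edited and 735, 737 and 653 in untreated WT libraries. Treated libraries lay below untreated ones in both lines, and untreated edited libraries lay above untreated WT ones. The log2 fold change with TGFβ was -1.12 ± 0.11 in the edited line (2.18-fold lower, adjusted p = 2.7e-07, limma) and -0.73 ± 0.11 in WT (1.65-fold lower, adjusted p = 3.85e-05). Untreated, TWIST2 was 1.33-fold higher in edited than in WT cells (log2 fold change 0.41 ± 0.11, adjusted p = 0.0119, limma), a call lost without edited untreated replicate 2 (adjusted p = 0.0555) or WT untreated replicate 3 (0.0590). With TGFβ the lines overlapped, with a log2 fold change of 0.01 (95% interval -0.23 to 0.26, adjusted p = 0.963) whose sign turned under 2 of the scalings. The responses differed by -0.40 ± 0.16 (adjusted p = 0.110).

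TWIST1 (chr7:19020991-19117672, minus strand), the paralogue of TWIST2 first known for mesoderm formation in the fly, was lower in untreated edited cells and showed no detectable change with TGFβ. Its values were 121, 122 and 132 in edited TGFβ libraries, 201.2, 128 and 202 in WT TGFβ libraries, 119, 120.1 and 122 in untreated edited libraries, and 200.4, 179 and 190.1 in untreated WT libraries. Edited libraries were below WT libraries except for WT TGFβ replicate 2, which lay among the edited values. Untreated, TWIST1 was 1.57-fold lower in edited than in WT cells (log2 fold change -0.65 ± 0.18, adjusted p = 0.00985, limma), and the call held in each leave-out (adjusted p at most 0.0393). With TGFβ the difference was -0.47 (95% interval -0.85 to -0.10, adjusted p = 0.0987, limma). It passed without WT TGFβ replicate 2 (-0.69, adjusted p = 0.0173) and by DESeq2 on recovered reads (adjusted p = 0.0416). The log2 fold change with TGFβ was 0.05 in the edited line (95% interval -0.32 to 0.43, adjusted p = 0.804) and -0.13 in WT (95% interval -0.50 to 0.25, adjusted p = 0.552). The edited value turned negative with equal totals and with quantile normalization, and the WT value turned positive without WT TGFβ replicate 2 (0.087). An antisense gene, AC003986.2, shares 141 exon bases with TWIST1 (6.94% of its exon bases).

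**Figure D2:**
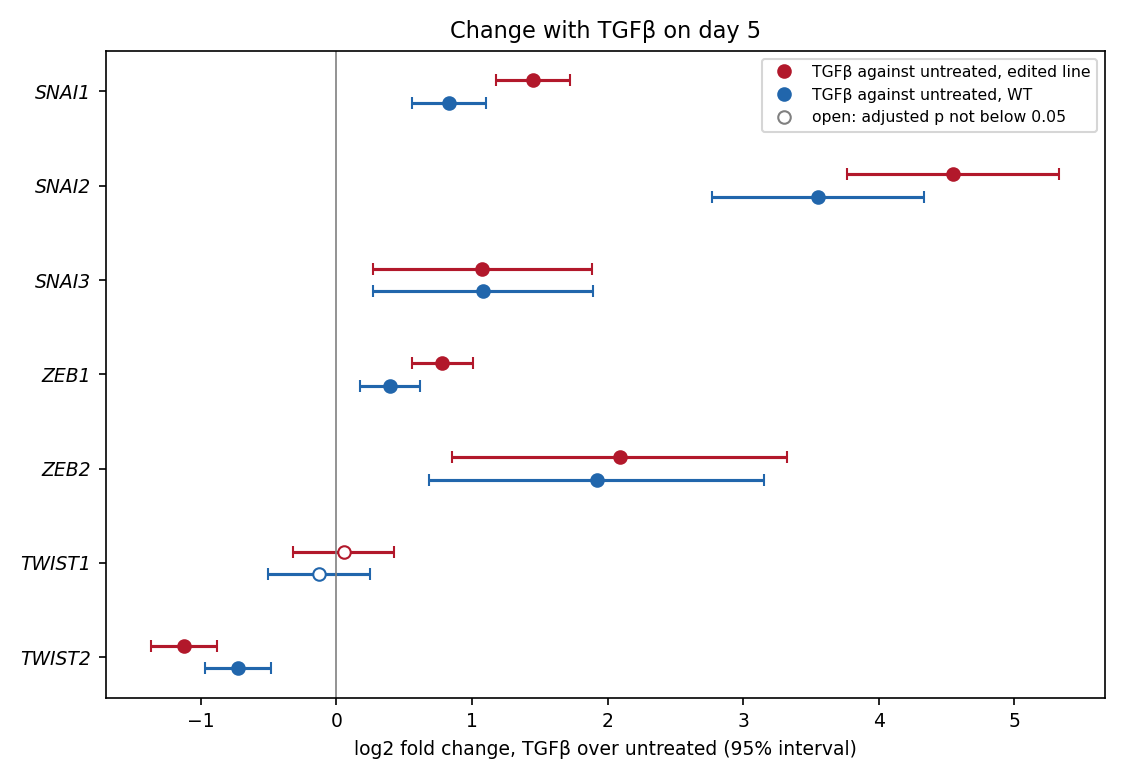
Log2 fold changes with TGFβ over untreated for the 7 factors, in the edited line (above) and in WT (below), with 95% intervals from limma; open points did not pass an adjusted p of 0.05. SNAI2 shows the largest value in both lines (4.55 edited, 3.55 WT), TWIST2 the only negative call, and the TWIST1 intervals include 0. SNAI2 met the expression filter through its treated libraries, so its filled points are a description.

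Counted together, TGFβ gave 5 members higher and 1 lower in each line, with TWIST1 as the one not called. Among all 20456 genes, 62.8% were called in the edited line (32.1% higher and 30.7% lower) and 61.7% in WT (30.8% higher and 30.9% lower). The median log2 fold change of the members was 1.08 in the edited line and 0.83 in WT, against 0.03 and 0.02 for all genes tested. Both of these counts rest on filtered genes, which SNAI2 entered through its treated libraries. In both lines 6 of 7 members had treated and untreated libraries that did not overlap, beside 69.2% of all genes in the edited line and 64.2% in WT. Between the untreated lines, 1 member was higher (TWIST2) and 1 lower (TWIST1), where 31.8% of all genes were called (14.3% higher and 17.5% lower). ZEB1, TWIST1 and TWIST2 did not overlap between the untreated lines (48.8% of genes did not), and SNAI1, SNAI2, SNAI3 and ZEB2 did not overlap between the treated lines (26.6% of genes did not). In bulk RNA, fewer cells that express a gene and less RNA per cell cannot be told apart.

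**Figure D3:**
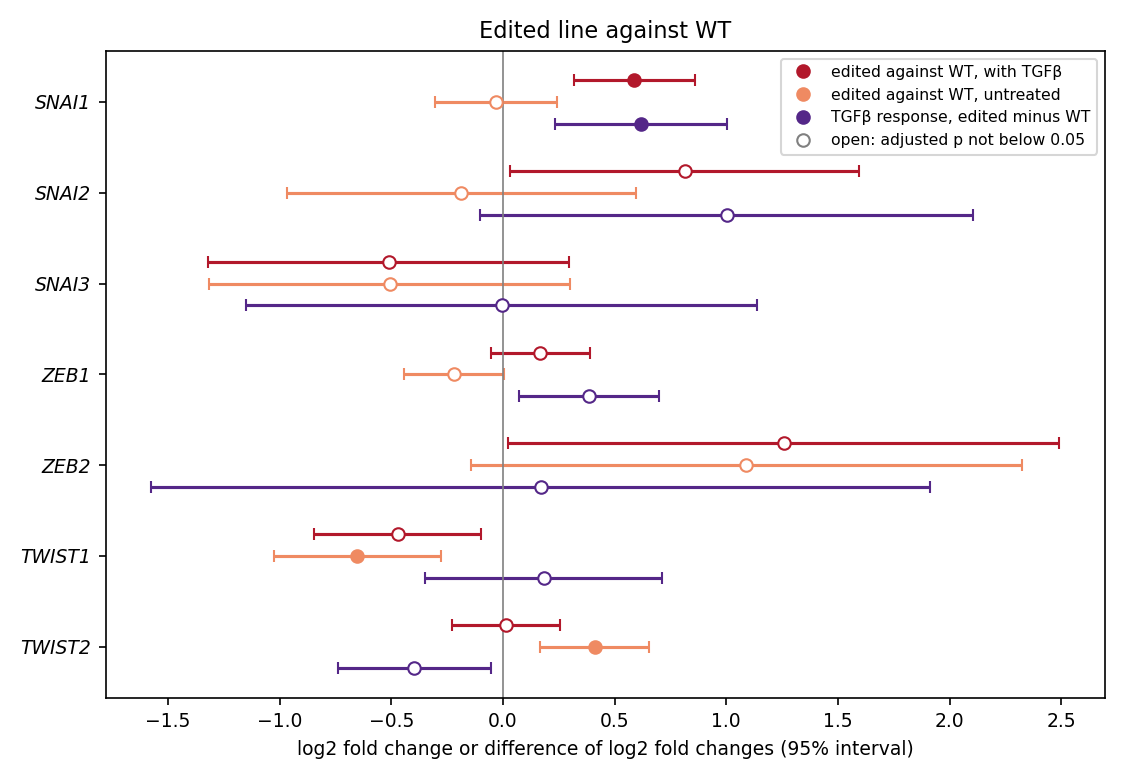
Edited line against WT for the 7 factors: log2 fold changes with TGFβ (top of each trio), untreated (middle) and the difference between the TGFβ responses (bottom), with 95% intervals from limma; open points did not pass an adjusted p of 0.05. SNAI1 passes with TGFβ (0.59) and for the response (0.62), while TWIST1 (-0.65) and TWIST2 (0.41) pass only between the untreated lines.

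Levels were compared between members as normalized counts per kilobase of annotated exon. With TGFβ, SNAI1 led the family in the edited line at 779 ± 57.2 per kb, ahead of ZEB1 at 487 ± 38.1 and TWIST2 at 231 ± 35.5, with no overlap between neighbours. In WT cells with TGFβ, SNAI1 (519 ± 57.6) and ZEB1 (438 ± 81.1) overlapped, and TWIST2 followed at 228 ± 13.7. Untreated, TWIST2 led in both lines, at 501 ± 31.9 per kb in edited and 377 ± 25.4 in WT cells. SNAI1 and ZEB1 came next and overlapped in each line, at 285 ± 25.7 and 283 ± 19.0 in edited cells and at 294 ± 52.6 and 329 ± 2.74 in WT cells.

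The remaining members were lower in every group. TWIST1 stood at 61.4 ± 3.01 per kb in edited TGFβ cells, 87.1 ± 20.7 in WT TGFβ cells, 59.1 ± 0.773 in untreated edited and 93.3 ± 5.31 in untreated WT cells. SNAI2 averaged 42.0 and 23.7 per kb in treated edited and WT cells, against 1.51 and 1.95 in untreated edited and WT cells. SNAI3 was between 9.28 and 28.7 per kb over the 4 group means, and ZEB2, whose exons span 25058 bases, had the lowest mean in all groups, between 0.591 and 4.10 per kb. In untreated edited cells ZEB2 overlapped SNAI2.

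As a share of the summed level of the 7 genes, SNAI1 took 47.9% ± 1.80 in edited TGFβ cells and 39.2% ± 4.70 in WT TGFβ cells, against 25.0% ± 1.68 in untreated edited and 26.4% ± 3.85 in untreated WT cells. TWIST2 took 14.2% ± 1.71 in edited TGFβ cells and 17.2% ± 1.19 in WT TGFβ cells, against 43.9% ± 0.877 in untreated edited and 34.0% ± 3.20 in untreated WT cells. The share of ZEB1 stayed between 24.9% and 33.0% over the group means. Within the TWIST pair, TWIST1 made up 21.2% ± 2.54 in edited TGFβ and 27.5% ± 5.47 in WT TGFβ cells, and 10.6% ± 0.671 in untreated edited and 19.9% ± 1.45 in untreated WT cells. The order depends on the length used: with the longest coding transcript in place of all exons, ZEB1 (605 ± 112 per kb) led SNAI1 (519 ± 57.6) in WT cells with TGFβ. By that length ZEB1 also stood above SNAI1 without overlap in untreated edited cells (391 ± 26.2 against 285 ± 25.7) and untreated WT cells (454 ± 3.78 against 294 ± 52.6). In edited TGFβ cells SNAI1 (720 to 834 per kb) still led ZEB1 (621 to 726) in the mean, but the libraries overlapped. SNAI2 (2.11 ± 0.399) was then below ZEB2 (2.57 ± 1.13) in untreated edited cells.

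**Figure D4:**
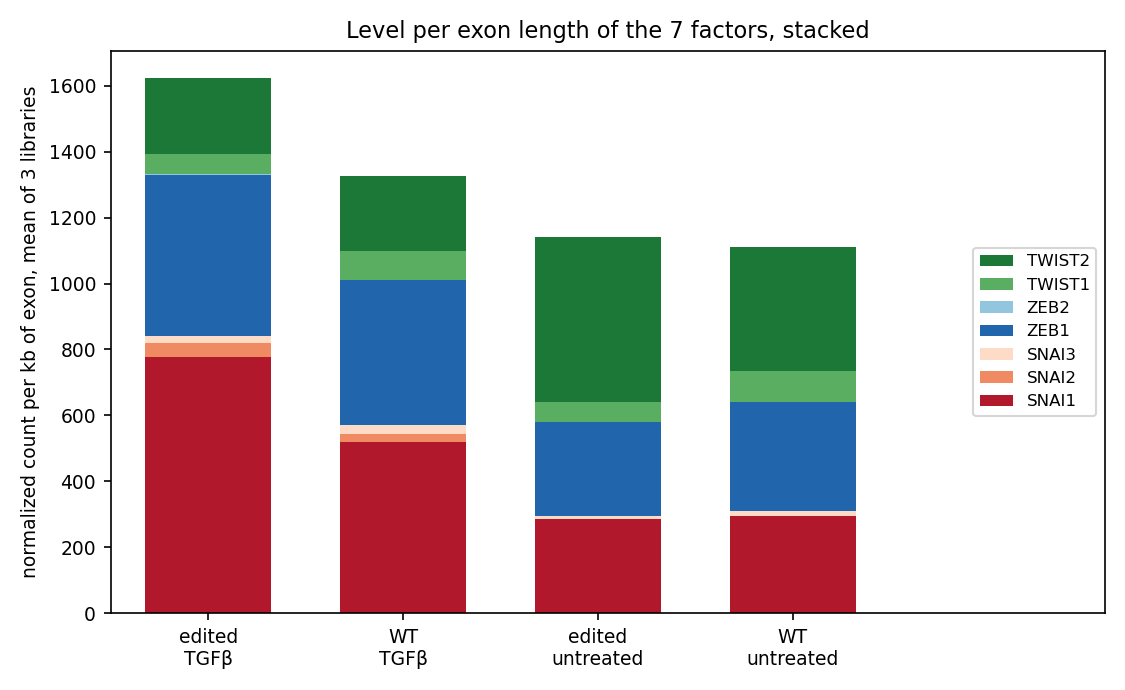
Mean normalized count per kb of exon of the 7 factors, stacked, in the 4 groups (3 libraries each). TWIST2 is the tallest block in untreated cells (501 edited, 377 WT per kb) and SNAI1 in treated cells (779 edited, 519 WT per kb).

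Genes with the most similar profile over the 12 libraries were sought among 13568 genes averaging at least 100, by the root mean square difference of log2 values centred on each gene's own mean. For SNAI1 these were NATD1 (difference 0.1497), RGS2 (0.171), a regulator of G-protein signalling, and GJA1 (0.175), the gap junction protein connexin 43. NATD1 averaged 1452 ± 106 in edited TGFβ cells, 1012 ± 36.4 in WT TGFβ cells, 576 ± 25.8 in untreated edited and 532 ± 27.8 in untreated WT cells. For ZEB1 they were TSPYL4 (0.0724), FAM126A (0.0740) and LSM11 (0.0759). For TWIST2 they were FAM204A (0.0743), NDUFS4 (0.0918) and PAFAH2 (0.0923), and for TWIST1 PLA2G16 (0.155), the Hedgehog effector GLI1 (0.160) and RP11-501C14.7 (0.166). SNAI2 was most like GOLGA7B (0.371), MOB3B (0.393) and PEAR1 (0.398). For SNAI3 the nearest was RP11-147L13.13 (0.277) and for ZEB2 RP11-4O1.2 (0.641). Over the 4 group means instead of 12 libraries, 1 of these 3 genes was kept for SNAI1 and none for the other 6 members.

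The factors' best-known targets were followed in a list of 22 epithelial genes reported to be repressed by SNAI, ZEB or TWIST proteins, of which 21 were tested. With TGFβ, 14 fell and 1 rose in the edited line, with a median log2 fold change of -0.54. In WT 17 fell and 1 rose, with a median of -0.81. The median of all genes was 0.03 in the edited line and 0.02 in WT. Among all genes 30.7% were called lower and 32.1% higher in the edited line, and 30.9% and 30.8% in WT. CDH1, the adherens junction cadherin, averaged 10285 ± 336 in edited TGFβ and 9233 ± 204 in WT TGFβ cells, against 34091 ± 1721 in untreated edited and 28540.3 ± 1821 in untreated WT cells. It fell by 1.73 on the log2 scale in the edited line (adjusted p = 3.94e-13) and by 1.63 in WT (adjusted p = 9.33e-13, both by limma). CLDN7, a tight junction claudin, had the largest fall of the list in each line (-3.64 ± 0.23 in the edited line, -2.77 ± 0.23 in WT), and CLDN4 was the one that rose (2.81 ± 0.14 and 3.06 ± 0.14). ESRP1, an epithelial splicing regulator, fell by 1.78 in the edited line and by 1.05 in WT.

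Between the untreated lines, 8 of the 21 genes were higher and 4 lower in edited cells, beside 14.3% and 17.5% of all genes. CRB3, a polarity gene, averaged 257 ± 28.1 in edited TGFβ and 157 ± 4.19 in WT TGFβ cells, against 589 ± 43.6 in untreated edited and 304 ± 31.1 in untreated WT cells. It was higher in the edited line both with TGFβ (0.70 ± 0.13, adjusted p = 0.00172) and without it (0.96 ± 0.13, adjusted p = 2.94e-05, both by limma). CLDN7 (1.30), ESRP1 (1.30) and CLDN4 (0.80) were also higher in untreated edited cells. PKP2, a desmosomal plakophilin (-0.63), CLDN1 (-0.51), INADL, the polarity gene also called PATJ (-0.37), and EPCAM (-0.24) were the 4 that were lower. With TGFβ 4 of 21 genes were higher in edited cells and none lower, beside 7.38% and 4.32% of all genes, with CRB3, CLDN4 (0.55) and the plakophilin PKP3 (0.35) among them. The count was 2 when limma was fitted to those groups alone, and also without edited TGFβ replicate 3 or WT TGFβ replicate 2. CDH1 was higher in the untreated edited line (0.26 ± 0.06, adjusted p = 0.00370, limma) and did not pass with TGFβ (0.16, adjusted p = 0.109). The TGFβ responses of 4 of the 21 genes differed between the lines, against 16.6% of all genes. EPCAM (-0.25 in the edited line and -0.86 in WT) and CLDN1 (-0.54 and -0.96) fell less in the edited line. INADL and PKP2 fell in WT (-0.44 and -0.53) and did not pass in the edited line (0.21 and -0.05).

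The CRB3 promoter is shown because CRB3 fell with TGFβ in both lines and differed between them, and its 300 bases held 5 of the E-boxes that SNAI and ZEB factors bind. The window is chr19:6464021-6464320, plus strand, GRCh38.p14, from RefSeq, with CAGGTG (4 times) and CACCTG (once) in capitals, which are one another's reverse complement.
CRB3 promoter: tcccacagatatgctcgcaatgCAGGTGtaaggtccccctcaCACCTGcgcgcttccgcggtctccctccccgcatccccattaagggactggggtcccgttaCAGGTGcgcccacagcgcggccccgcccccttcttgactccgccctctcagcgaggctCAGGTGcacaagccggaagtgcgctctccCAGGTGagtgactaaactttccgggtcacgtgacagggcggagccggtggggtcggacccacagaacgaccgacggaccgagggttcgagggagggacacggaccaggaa
Of all 35116 such promoters, 20.6% held at least 1 of these E-boxes and 0.635% held at least 3. Among the listed epithelial genes 12 had a promoter of this kind and 9 of these held an E-box, against 24.1% of 27305 genes. The list holds reported targets of factors that bind E-boxes. Its share therefore depends on how the list was chosen and is a description only. Among the mesenchymal genes 2 of 12 held one. CLDN1, which also fell with TGFβ in both lines, and CLDN4, which rose, held no E-box. CLDN7, with the largest fall, held 5 in the window chr17:7262429-7262728 and 0 in the window chr17:7263164-7263463. ZEB1 has 7 annotated starts in the table, one of them with 3 E-boxes, while the TWIST2 and ZEB2 windows held none. These letters do not measure binding.

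Mesenchymal genes were followed in a list of 20. With TGFβ, 17 rose and none fell in each line, with a median log2 fold change of 3.09 in the edited line and 3.41 in WT. Of all genes, 32.1% were called higher and 30.7% lower in the edited line, and 30.8% and 30.9% in WT. Their median log2 fold change was 0.03 in the edited line and 0.02 in WT. VIM, the intermediate filament vimentin, averaged 64772 ± 1741 in edited TGFβ and 66948 ± 10514 in WT TGFβ cells, against 14452 ± 211 in untreated edited and 21440.3 ± 1162 in untreated WT cells. FN1, fibronectin, averaged 170348 ± 22739 in edited TGFβ and 134619 ± 31060.2 in WT TGFβ cells, against 27356 ± 4535 in untreated edited and 18921 ± 1007 in untreated WT cells. The untreated edited line was lower than WT in VIM (-0.57 ± 0.09, adjusted p = 0.000131, limma) and higher in FN1 (0.52 ± 0.14, adjusted p = 0.0120, lost without edited untreated replicate 1 at 0.0683). Neither passed with TGFβ (VIM -0.04, adjusted p = 0.850, and FN1 0.36, adjusted p = 0.129, both by limma). Without WT TGFβ replicate 3 the FN1 difference between the treated lines passed (0.53, adjusted p = 0.00778, limma).

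With TGFβ, 6 of the 20 mesenchymal genes were higher and 1 lower in edited cells, beside 7.38% and 4.32% of all genes. Only 4 in all passed without edited TGFβ replicate 3 or WT TGFβ replicate 2. TNC, the matrix protein tenascin C, averaged 853 ± 196 in edited TGFβ and 231 ± 47.0 in WT TGFβ cells (log2 fold change 1.88 ± 0.24, adjusted p = 9.45e-05, limma). CDH2, the mesenchymal cadherin, averaged 375 ± 30.9 and 167 ± 38.8 in the same groups (1.19 ± 0.26), and LOX, a collagen cross-linking oxidase, 4371 ± 82.3 and 2658 ± 77.6 (0.72 ± 0.16). COL1A1 was the lower one, at 108249 ± 2273 in edited TGFβ and 155971 ± 4108 in WT TGFβ cells (-0.53 ± 0.09, adjusted p = 0.000883). TNC, CDH2 and COL1A1 also differed between the untreated lines in the same directions. The untreated edited-over-WT values were 2.54 ± 0.24 for TNC, 1.06 ± 0.26 for CDH2 and -0.79 ± 0.09 for COL1A1, each called by limma. LOX averaged 132 ± 37.5 in untreated edited and 144 ± 27.1 in untreated WT cells. The response of LOX, THBS1, CDH11 and VIM was among those larger in the edited line. LOX and CDH11 (0.26) were higher in edited cells with TGFβ. THBS1 averaged 109615 ± 2377.5 in edited TGFβ and 113444 ± 14358 in WT TGFβ cells. Untreated, it averaged 4778 ± 456 in edited and 8484 ± 388 in WT cells (-0.83 ± 0.08, adjusted p = 2.5e-06, limma). VIM likewise was lower in untreated edited cells and did not pass between the treated lines. MMP2 (-2.33), a matrix metalloproteinase, had a smaller response in the edited line. Its untreated level was 11.8 ± 3.27 in edited and 1.69 ± 2.06 in WT cells. This value depends on the pseudocount, since its untreated WT level is near 0.

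Corepressors and partners with which these factors act were followed in 18 genes. With TGFβ, 9 rose and 4 fell in the edited line and 7 rose and 8 fell in WT, where 62.8% and 61.7% of all genes were called in either direction. LOXL2, an oxidase that binds SNAI1, rose most in both lines (4.32 ± 0.09 in the edited line and 4.36 ± 0.09 in WT). The E proteins TCF3 (1.51 and 1.23) and TCF4 (1.45 and 1.54), dimer partners of TWIST proteins, and the demethylase KDM1A (1.09 and 0.91) rose as well. AJUBA, a LIM protein that links SNAI1 to PRMT5, fell by 1.31 in the edited line and by 1.54 in WT, and PRMT5 fell by 0.69 in the edited line and fell by 0.51 in WT. Between the untreated lines 10 of 18 were lower in edited cells and 1 higher, beside 17.5% and 14.3% of all genes. EZH2, the methyltransferase of Polycomb complex PRC2, was lowest against WT, with 4385 ± 138 in untreated edited and 7432 ± 140.1 in untreated WT cells (-0.76 ± 0.05, adjusted p = 4.11e-08, limma). With TGFβ, 5 were lower and none higher, beside 4.32% and 7.38% of all genes, EZH2 again among them (-0.32 ± 0.05, adjusted p = 0.000959). Only 1 passed when limma was fitted to those groups alone, or without edited TGFβ replicate 1 or 3 or WT TGFβ replicate 2, and 2 passed without edited TGFβ replicate 2 or WT TGFβ replicate 1.

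SNAI1 protein turns over quickly, and 15 genes that set its stability were followed at the RNA level; protein was not analysed here. With TGFβ, 7 rose and 5 fell in the edited line and 4 rose and 6 fell in WT, beside 62.8% and 61.7% of all genes called in either direction. USP27X, a deubiquitinase of SNAI1, rose by 1.15 ± 0.11 in the edited line and by 0.82 ± 0.11 in WT, and the ubiquitin ligase component FBXO45 fell by 0.77 in the edited line and fell by 0.74 in WT. GSK3B, the kinase that marks SNAI1 for degradation, did not pass in either line (-0.01 in the edited line, 0.002 in WT), while BTRC, the F-box protein that then recognises it, rose (0.28 ± 0.07 and 0.34 ± 0.07). CTDSPL, a small phosphatase that acts on SNAI1, averaged 1782 ± 61.2 in edited TGFβ and 1840.4 ± 88.6 in WT TGFβ cells, against 1078 ± 18.4 in untreated edited and 2222 ± 53.1 in untreated WT cells. It was lower in untreated edited cells (-1.04 ± 0.06, adjusted p = 1.33e-08) and its responses to TGFβ differed between the lines (1.00 ± 0.09, adjusted p = 6.31e-06, limma). The responses of 5 of the 15 genes differed (16.6% of all genes did), each with a positive edited-minus-WT difference, including CTDSP2, LATS2 and PAK1.

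Of 16 inducers of these factors, 11 rose and 3 fell with TGFβ in the edited line (32.1% and 30.7% of all genes) and 9 rose and 4 fell in WT (30.8% and 30.9%). TGFBR1, the type I TGFβ receptor, averaged 117194 ± 7683 in edited TGFβ and 90084 ± 6926 in WT TGFβ cells, against 9594 ± 759 in untreated edited and 7613 ± 318 in untreated WT cells. It was higher in the edited line with TGFβ (0.38 ± 0.07, adjusted p = 0.00323) and without it (0.33 ± 0.07, adjusted p = 0.00269, both by limma). SMAD3, the receptor's signal transducer, rose in both lines (1.23 ± 0.05 and 1.02 ± 0.05), and SMAD2 fell (-1.15 ± 0.05 and -1.16 ± 0.05). SMAD2 was higher in edited than in WT cells in both states, by 0.40 ± 0.05 with TGFβ and 0.39 ± 0.05 untreated. HMGA2, a chromatin protein that cooperates with SMADs on SNAI1, was lower in the edited line, with 4532 ± 167 in edited TGFβ and 5367 ± 239 in WT TGFβ cells, and with 1568 ± 48.4 in untreated edited and 2707 ± 25.6 in untreated WT cells.

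In the inducer list the edited-minus-WT difference of responses was positive in 8 of 16 genes that passed and negative in none, beside 10.6% and 6.02% of all genes. Among the 8, TGFBR2, the type II receptor (-0.73 in the edited line, -1.03 in WT), and the hypoxia factor HIF1A (-0.58, -0.99) fell less in the edited line. SOX4, a factor induced by TGFβ, averaged 30502 ± 1276 in edited TGFβ and 25941 ± 252 in WT TGFβ cells, against 5335 ± 343 in untreated edited and 7231 ± 262 in untreated WT cells (difference of responses 0.67 ± 0.08, adjusted p = 7.2e-05, limma). EGR1, an early response factor that acts on SNAI1, averaged 44144 ± 749.5 in edited TGFβ and 30257 ± 1318 in WT TGFβ cells, against 25618 ± 1166 in untreated edited and 31784 ± 881 in untreated WT cells (0.86 ± 0.08, adjusted p = 6.92e-06). SMAD4 and HMGA2 were among the others (0.52 ± 0.12 and 0.54 ± 0.08), and the SMAD4 response was 0.22 in the edited line and -0.30 in WT.

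Factors that oppose this programme were followed in 16 genes, of which 11 were tested. With TGFβ, 7 fell and 1 rose in the edited line (30.7% and 32.1% of all genes) and 8 fell and none rose in WT (30.9% and 30.8%). EHF, an epithelial ETS factor, averaged 303 ± 11.2 in edited TGFβ and 148 ± 28.5 in WT TGFβ cells, against 2936 ± 203 in untreated edited and 2754 ± 152 in untreated WT cells. Its fall was smaller in the edited line (-3.27 ± 0.12) than in WT (-4.23 ± 0.12), with a difference of 0.96 (adjusted p = 0.00115, limma), and with TGFβ it was higher in edited cells (1.05 ± 0.12, adjusted p = 3.67e-05, limma). ELF3, a second epithelial ETS factor, fell by 1.49 in the edited line and by 1.74 in WT. ID4, an inhibitor of helix-loop-helix factors that lacks a DNA-binding domain, fell by 2.72 in the edited line and fell by 2.44 in WT. FOXA1, a pioneer factor of lung epithelium, rose in the edited line (0.81 ± 0.06, adjusted p = 9.55e-09) and not detectably in WT (0.13, adjusted p = 0.0853). Its responses differed by 0.68 ± 0.09 (adjusted p = 0.000120, limma). ELF3 was near the threshold for that difference (adjusted p = 0.0492), and its call was lost in 17 of 24 alternative analyses.

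**Figure D5:**
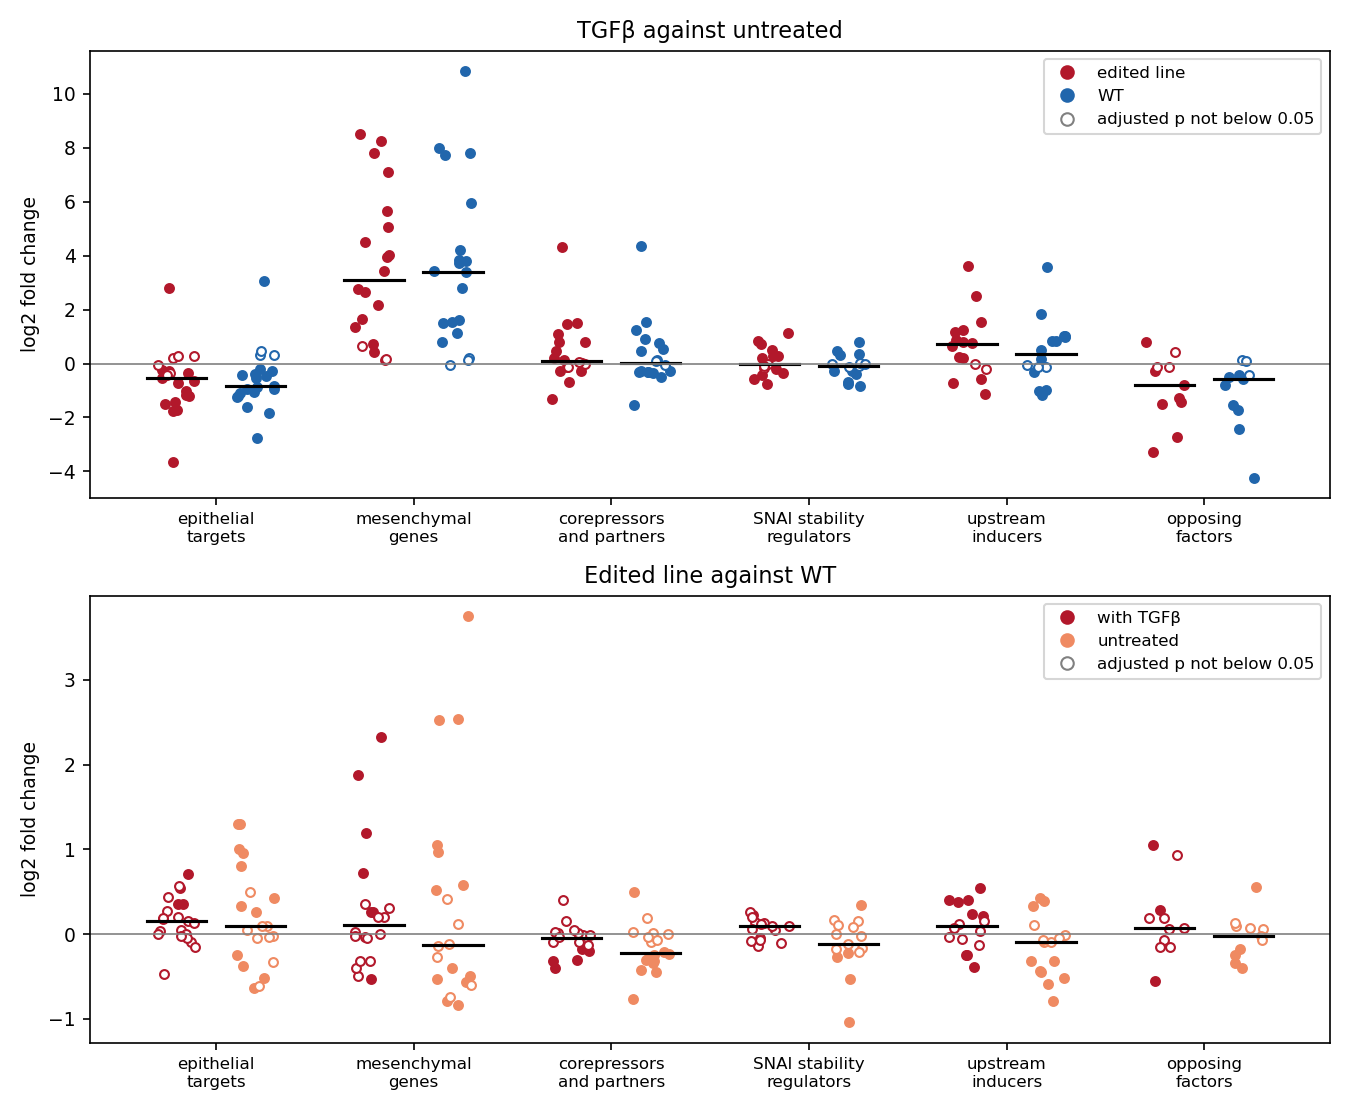
Log2 fold changes of the tested genes of 6 lists: with TGFβ over untreated in the edited line and WT (upper panel), and edited over WT with TGFβ and untreated (lower panel). Points are genes, bars list medians, and open points did not pass an adjusted p of 0.05. The mesenchymal list has the highest medians with TGFβ (3.09 edited, 3.41 WT), and the epithelial (-0.54, -0.81) and opposing lists (-0.79, -0.59) the lowest.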

How the data were processed

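RNA-seq libraries of A549 cells (12, in 4 groups of 3) were analysed from 1 deposited table of normalized counts, a signal that the authors made by dividing gene counts by library size factors. The submitters' processing notes name HISAT2, StringTie, featureCounts, DESeq2 and build GRCh38.p14; roles, versions, strand setting and annotation were not given in the sources used here. For every library all values were whole multiples of 1 step (within 0.01), so whole reads were recovered for count tests.

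Genes with at least 10 in at least 3 libraries were tested (20456) with limma 3.58.1 in R 4.3.3 on log2(value + 1), trend on, 4 group means in 1 fit, two-sided, Benjamini-Hochberg over all genes, threshold 0.05, without a replicate block. The step was tested on simulated data. Alternatives, including edgeR 4.0.16 quasi-likelihood and DESeq2 1.42.0 on recovered reads, are in the closing section. The labels call the libraries biological repeats and do not say whether cultures were separate, so p-values may measure only technical spread.

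The members and lists were chosen with earlier results of these data known. Named list genes were, per direction, up to 4 called ones with the largest change, averaging at least 100 and with groups apart (not required for the difference between responses). GSK3B and further values of list genes in other comparisons were chosen after their values were seen. Similar profiles are the 3 nearest genes. Some listed genes and markers are counted in their lists and not reported here by name. Exon and coding transcript lengths, antisense overlaps and 3′ untranslated regions came from GENCODE on GRCh38. For each gene the longest 3′ untranslated region among its coding transcripts with annotated ends was used. MicroRNA and promoter sequences came from RefSeq. All members matched the annotation, and promoters of SNAI1, SNAI2, SNAI3, TWIST1 and CDH1 were not used here.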

Additional observations from a re-analysis of the deposited data

Results flagged for a closer look

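For the members, MIR22HG, CDH1, VIM, FN1 and the list genes chosen by the naming rule, responses to TGFβ that differed between the lines by limma's interaction term (adjusted p below 0.05) are given as the log2 response in the edited line minus that in WT. Among all genes 16.6% passed.

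SNAI1 had 0.619. Among mesenchymal genes VIM had 0.532, CDH11 0.663, THBS1 0.790, LOX 0.861 and MMP2 -2.33. Among epithelial genes EPCAM had 0.603, INADL 0.648, PKP2 0.475 and CLDN1 0.422, and the epithelial marker KRT7 had -0.54 (adjusted p = 0.00245). Among corepressors EZH2 had 0.445 and SIN3A 0.247. Among regulators of SNAI1 stability CTDSPL had 0.996, LATS2 0.426, CTDSP2 0.342 and PAK1 0.314. Among inducers EGR1 had 0.857, SOX4 0.673, HMGA2 0.545 and SMAD4 0.524. Among opposing factors EHF had 0.960, FOXA1 0.682, FOXA2 0.300, ELF3 0.252 and KLF4 -0.632. In 24 alternative analyses the adjusted p rose above 0.05 in 17 for ELF3 (up to 0.14), 16 for SIN3A (up to 0.168), 11 for FOXA2 (up to 0.0949) and 6 for SNAI1 (up to 0.0793). The other genes given here kept their call in each.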

How the results depend on the processing

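Over 25 alternative settings the 7 members gave 863 values, of which 805 kept direction and side of the threshold, 18 lost a call, 16 gained one and 24 turned sign, and none of those 24 had been called. The causes were not tested. SNAI1 kept its calls for TGFβ in both lines and between the treated lines in all 25 (log2 fold changes 1.31 to 1.503 in the edited line, 0.68 to 0.94 in WT and 0.50 to 0.66 between the treated lines).

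Leaving out 1 library at a time, the difference of SNAI1 responses ranged over 0.503 to 0.765 and the untreated SNAI1 difference over -0.176 to 0.0853. Members called ranged over 1 to 3 between the untreated lines, 1 to 2 between the treated lines and 0 to 2 for the responses. Ranges that crossed 0 were -0.236 to 0.0872 for TWIST1 with TGFβ in WT, -0.423 to 0.242 for untreated SNAI2, -0.0668 to 0.147 for TWIST2 and -0.161 to 0.0685 for VIM between the treated lines, and for the responses -0.339 to 0.413 for SNAI3, -0.466 to 1.09 for ZEB2, -0.0330 to 0.290 for TWIST1 and -0.327 to 0.00658 for FN1.

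Between the treated lines 3 members passed with a pseudocount of 10, 2 with only the compared groups and 4 by DESeq2. Signs turned for TWIST1 with TGFβ in the edited line (-0.0173 with equal totals, -0.149 with quantile normalization), for TWIST2 between the treated lines (-0.0192, -0.0501, and -0.0330 without replicate 1 of both TGFβ groups), and for SNAI3 responses (0.101 with quantile normalization, 0.0996 by edgeR, 0.127 by DESeq2). Without replicate 1 of both TGFβ groups VIM between the treated lines was 0.0504 and the ZEB2 response difference -0.0918.

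Same-number libraries had 18 correlations of deviations of -0.031 to 0.129, with 2 over 0.1. The best match was with the own number in 19 of 36 cases. Whether replicate numbers pair the samples was not given in the sources used here. A replicate block raised the genes called between the treated lines from 2394 to 2987. For the responses it raised them from 3395 to 3987. With the replicate block 2 members differed in response, ZEB1 passing at an adjusted p of 0.0299 beside SNAI1. Of the lists' counts, differing responses ranged over 4 to 8 for epithelial genes (4 as reported), 1 to 7 for corepressors (2) and 3 to 6 for opposing factors (5). With 50 as the minimum SNAI3 was not tested. Depth limits SNAI2, SNAI3 and ZEB2 in untreated cells, where a library held 2 to 44 reads of each.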

Other observations

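Some inducers and opposing factors differed between the lines with TGFβ, without it, or in both states. GLI1, the Hedgehog effector, was lower in the edited line with TGFβ (-0.38, adjusted p = 0.00113) and without it (-0.51, adjusted p = 2.08e-05, both by limma), at 1923 ± 53.4 in edited TGFβ and 2511 ± 91.9 in WT TGFβ cells. SOX9, a progenitor factor, was also lower in both states (-0.25 with TGFβ and -0.59 untreated). HIF1A, the hypoxia factor, fell with TGFβ in both lines and was higher in the edited line with TGFβ (0.40, adjusted p = 0.000877, limma). KLF4, a Krüppel-like factor, averaged 1241 ± 66.7 in edited TGFβ and 1307 ± 104 in WT TGFβ cells, against 3381 ± 378 in untreated edited and 2289.9 ± 148 in untreated WT cells. GATA3 was lower in the edited line with TGFβ (-0.55, adjusted p = 0.00255) and without it (-0.34, adjusted p = 0.0186, both by limma), at 647 ± 106 in edited TGFβ and 943 ± 80.9 in WT TGFβ cells.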
